A study of Mus musculus with 4 samples.

Results

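Regions where CG methylation was low in control cortex and higher after loss of Nsd1, and that lie in protein-coding genes, were examined by whole-genome bisulfite sequencing of mouse somatosensory cortex at 2.5 months. Members were chosen by measured values: they are autosomal CG regions of the authors' deposited table with a higher mean level in cKO than in control, a control level below 35%, and at least 1 bp of overlap with the body of a RefSeq protein-coding gene. They number 504 of 560 autosomal gains that start below 35%, of 2588 autosomal CG gains and of 46832 autosomal CG regions listed. The Nsd1Nex-cKO group (2 libraries, called cKO) has a conditional Nsd1 deletion under Nex, a driver active in the excitatory lineage of the forebrain. The control group, Nsd1fl/+ (2 libraries), has 1 floxed allele, and the labels state neither whether it carried the driver nor whether the libraries of a group came from separate animals. The tissue was not sorted, so other cortical cells contribute to every level, and a change within the deleted neurons and a change in the mix of cells cannot be told apart. Both the direction and the control level chose these regions, so their levels and differences are given as a description with no test. Every level printed is the authors' mean over a group in the deposited table. Values per library are not used here, so the spread behind a level and its depth are unknown.

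NSD1 is a methyltransferase for lysine 36 of histone H3. The dimethyl mark it leaves is bound by the PWWP domain of the DNA methyltransferase DNMT3A, and Polycomb complexes and their mark on lysine 27 are largely kept out of chromatin that carries it. Most CpGs of a mammalian genome are methylated, whereas CpG islands, the stretches dense in CpGs at most promoters, and active enhancers are kept low. A region that is low in control tissue is therefore often a regulatory element, an island, or an imprinted locus where only 1 parental allele is methylated.

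The gains ranged from low, CpG-dense stretches, many of them near gene starts but others deep inside genes, to mostly less dense stretches at intermediate levels. Over the 504 regions the median level was 47.8% in cKO (quartiles 33.2% and 56.1%) and 24.7% in control (quartiles 12.8% and 30.6%). The median difference was 22.9 points (range 5.82 to 46.8), and the median ratio of cKO to control was 2.03 (quartiles 1.82 and 2.36). The regions had a median length of 114 bp and covered a median of 18 cytosines. The deposited count of cytosines takes in both strands, so that 18 cytosines stand for 9 CpGs at most sites: in 194 of 203 CG regions that lie wholly inside a promoter sequence of RefSeq, the count equalled the CpG cytosines of both strands, and in the other 9 it was lower.

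**Figure D1:**
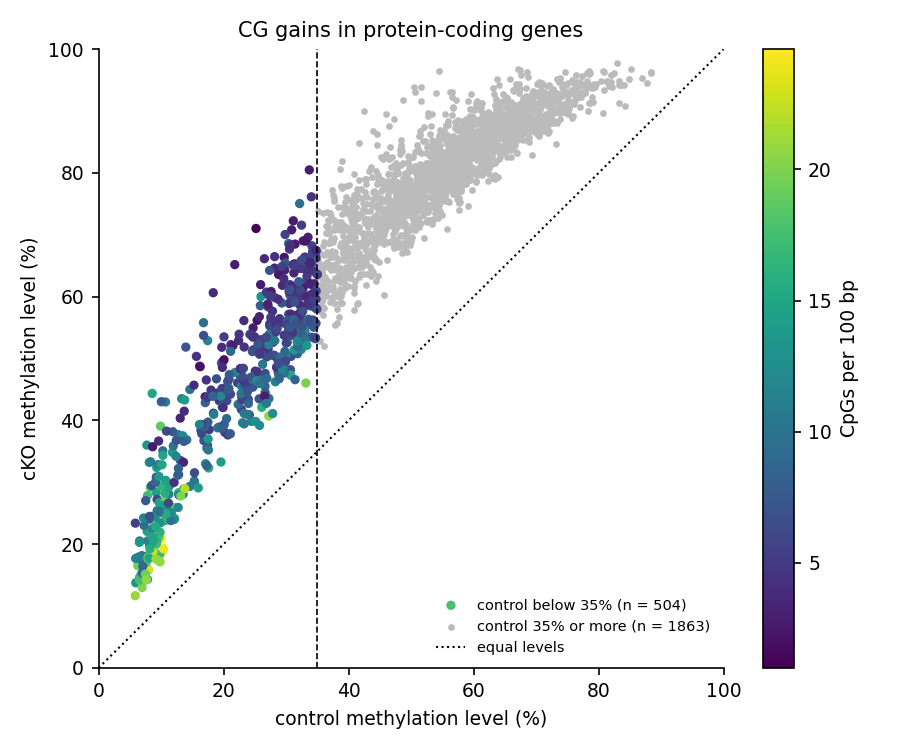
Mean methylation level in cKO against control for each CG region higher in cKO in a protein-coding gene, with the 504 regions below 35% in control coloured by CpGs per 100 bp and the 1863 others in grey. Regions of high CpG density are mostly at the lower left, where both levels are low, with some at intermediate levels such as Mgat5 (21.3 CpGs per 100 bp, 50.5% in cKO and 30.7% in control, named after its values were seen), and the dotted line marks equal levels.

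The stretches shown next are the parts of 6 regions that lie over a promoter sequence, and they are shown because promoter windows are where the sequence under a region could be read. They are the 6 genes with the longest overlap between a region and the window from 250 bases before to 50 bases after a listed start. A listed start can lie inside the gene: the regions of Bcl9 and Sptbn4 lie 74.8% and 56.0% along their genes. The sequences were taken from RefSeq (build GRCm38.p6, which mm10 follows) and run 5′ to 3′ on the strand of the gene, with every CpG in capitals.
Bcl9 (chr3:97227348-97227614, minus strand): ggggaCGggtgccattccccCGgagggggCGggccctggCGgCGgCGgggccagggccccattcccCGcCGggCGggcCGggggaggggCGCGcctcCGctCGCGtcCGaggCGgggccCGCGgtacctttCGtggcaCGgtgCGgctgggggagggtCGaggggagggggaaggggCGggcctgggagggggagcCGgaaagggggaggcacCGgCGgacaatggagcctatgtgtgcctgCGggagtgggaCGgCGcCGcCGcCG
Sptbn4 (chr7:27396516-27396701, minus strand): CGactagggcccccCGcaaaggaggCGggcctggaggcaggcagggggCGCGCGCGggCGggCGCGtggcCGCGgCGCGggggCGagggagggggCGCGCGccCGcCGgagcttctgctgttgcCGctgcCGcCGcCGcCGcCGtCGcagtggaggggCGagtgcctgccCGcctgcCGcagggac
Mllt3 (chr4:88033358-88033529, minus strand): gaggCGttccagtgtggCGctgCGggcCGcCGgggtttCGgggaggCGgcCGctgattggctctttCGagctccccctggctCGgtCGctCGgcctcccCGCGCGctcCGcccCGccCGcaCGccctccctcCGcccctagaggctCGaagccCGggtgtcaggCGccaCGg
Sestd1 (chr2:77280543-77280708, minus strand): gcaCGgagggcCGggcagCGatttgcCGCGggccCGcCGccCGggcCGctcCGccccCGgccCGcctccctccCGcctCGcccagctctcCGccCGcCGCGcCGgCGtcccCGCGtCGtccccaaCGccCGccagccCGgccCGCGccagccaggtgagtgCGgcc
Btbd2 (chr10:80656445-80656597, minus strand): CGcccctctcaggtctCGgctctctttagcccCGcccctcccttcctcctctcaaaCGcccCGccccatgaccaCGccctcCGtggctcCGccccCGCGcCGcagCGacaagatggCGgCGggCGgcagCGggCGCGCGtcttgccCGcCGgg
Ppp1r14b (chr19:6974948-6975097, plus strand): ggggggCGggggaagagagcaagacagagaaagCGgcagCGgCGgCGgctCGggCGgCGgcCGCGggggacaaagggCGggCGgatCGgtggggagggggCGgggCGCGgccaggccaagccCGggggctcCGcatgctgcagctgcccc

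The Bcl9 stretch holds 33 CpGs in 267 bases, that of Sptbn4 30 in 186, that of Mllt3 24 in 172, that of Sestd1 29 in 166, that of Btbd2 21 in 153 and that of Ppp1r14b 18 in 150. Their GC content ran from 75.8% (Btbd2) to 84.9% (Sestd1). Bcl9, a coactivator of beta-catenin, had 35.7% in cKO and 8.63% in control. The deposited region there counts 17 cytosines, fewer than the CpGs of this stretch offer, so part of the island entered no level. Sptbn4, the spectrin of the axon initial segment, had 30.9% in cKO and 9.64% in control. Mllt3, a subunit of the super elongation complex, had 20.3% in cKO and 6.52% in control. Over the 6 regions the levels were 20.3% to 35.7% in cKO and 6.52% to 9.97% in control.

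Promoter windows touched by these gains were GC-rich. Of 45 windows of protein-coding genes that overlap a region, 41 (91.1%) had more than 50% GC and an observed to expected ratio of CpGs above 0.6, a common definition of an island. Among all 19946 such windows 46.5% did. The median window held 39 CpGs where a region overlapped it and 14 over all windows. Windows are counted per listed start, so Ltbp4, Elovl2 and Zfp131 each enter more than once with the same region. The GC box GGGCGG, bound by SP and KLF factors, was present on either strand in 88.9% of the 45 windows, in 77.0% of all island-like windows and in 47.2% of all windows. The EGR motif GCGGGGGCG was found in 28.9% of the 45, in 7.64% of island-like windows and in 3.98% of all windows, and 1 stretch of letters can match both motifs. The tetramers CGCG and CCGG were in 42 and 43 of the 45 windows, close to their shares of island-like windows (89.998% for CGCG and 92.9% for CCGG). The E-box CACGTG was in 6.67% of the 45 and 11.6% of island-like windows, and the AP-1 site TGANTCA in 2.22% and 3.24%. The cAMP response element TGACGTCA and the NRF1 palindrome were in 0 of the 45 windows, against 3.80% and 2.58% of island-like windows, and the core CTCF motif was in 0, against 0.0863%. These shares describe letters in 300 bases only. The 45 windows had a median GC content of 77.7%, against 57% over all windows, and no match on GC content was made.

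Density and position followed the control level. Among the 87 regions below 10% in control the median density was 14.6 CpGs per 100 bp, and among the 140 regions from 30% to 35% it was 5.66. Across all 504 regions Spearman's rank correlation between control level and density was -0.55, a description over regions whose level and density come from the same cytosines. Below 15% in control, a bound chosen after the values were seen, 147 regions had medians of 25.3% in cKO and 9.64% in control, a ratio of 2.55. From 15% upwards, 357 regions had medians of 53.2% in cKO and 28.3% in control, a ratio of 1.93. The difference in points was smaller in the first class (median 15.3) than in the second (median 25.2), whereas the ratio was larger. The rank correlation between control level and difference was 0.55. The control level is a term of both the difference and the ratio, and the rule used it, so these contrasts are partly built in. The area statistic, the authors' score summed over a region, followed the number of cytosines (rank correlation 0.98). A ranking by it therefore favours regions with many cytosines. Its rank correlation with the difference in points was -0.45, so regions ranked high by it tended to have smaller differences.

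**Figure D2:**
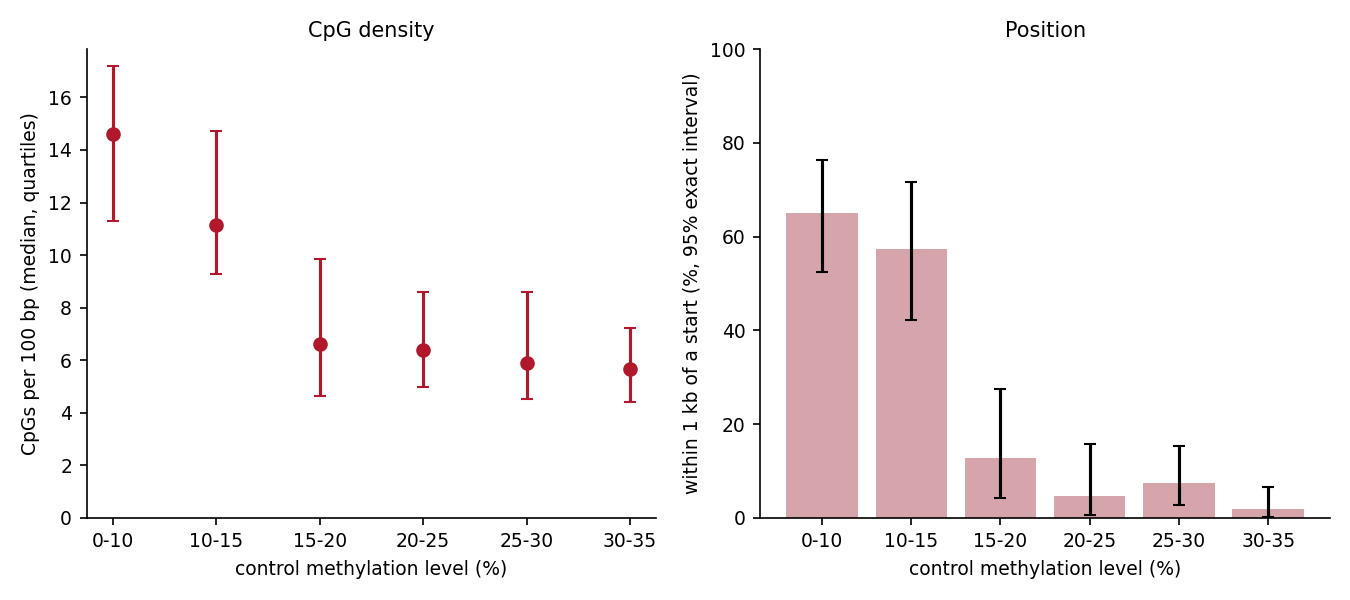
Left, CpGs per 100 bp of the 504 regions in 6 bins of control level, as median with quartiles. Right, the percent of regions within 1 kb of the start of a protein-coding gene in the same bins, with 95% exact binomial intervals. The median density is 14.6 in the lowest bin, 6.60 in the bin from 15% to 20% and 5.66 in the highest bin, and the share near a start is 65.2% in the lowest and 1.85% in the highest.

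Starts of transcription were listed for the genes of 384 regions. Of these, 85 (22.1%, 95% exact binomial interval 18.1% to 26.6%) lay within 1 kb of the start of a protein-coding gene, and 22 covered the start itself. The middle of the region lay downstream of the start in 54 of the 85 and upstream in 31. Regions within 1 kb of a start had medians of 26.8% in cKO and 9.997% in control and 13.6 CpGs per 100 bp. The 206 regions more than 10 kb from any listed start had medians of 53.0% in cKO and 27.7% in control and 5.99 CpGs per 100 bp. By control level, 61.9% of the regions below 15% (70 of 113) and 5.54% of those from 15% upwards (15 of 271) lay within 1 kb of a start. The other 43 of the 113 lay farther from any listed start, but a listed start is not always the outer edge of a gene. The regions of Zbtb20 and Spns2 lie 0.056% and 0.061% along their genes, yet 371108 and 14862 bp from the nearest listed start. Only for 156 of the 384 regions was the edge of an overlapped gene a listed start. With such starts alone, 24.4% of the 156 lay within 1 kb. The share of 22.1% over all regions depended on the minimum set for a region: it was 34.1% with at least 10 CpGs and 10% with a difference of at least 20 points. These intervals cover counting error alone and treat regions as independent, although regions near each other come from the same cells.

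Genic gains from a control level of 35% or more lay elsewhere in genes. Of 1461 such regions with a listed start, 10 (0.684%, 95% exact binomial interval 0.329% to 1.26%) were within 1 kb of a start. Genic CG losses from a control level below 35% lay near starts in 60 of 158 cases (38.0%, interval 30.4% to 46.0%), with medians of 10.3% in cKO and 29.1% in control. The low-level gains had a median density of 7.14 CpGs per 100 bp, against 6.56 in the low-level losses and 5.22 in the other gains. Along the gene from start to end, 31.5% of the low-level gains fell in the first 20% of the gene and 27.1% in the last 20%. The other gains were at 11.4% and 31.4%, and the low-level losses at 46.8% and 12.03%. The low-level gains were thus placed at both ends of genes more than in the middle, where each stretch of 20% of the gene held 12.2% to 16.1%. No test was made of these differences, because regions are not replicates and the control level that separates the classes comes from the same libraries.

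**Figure D3:**
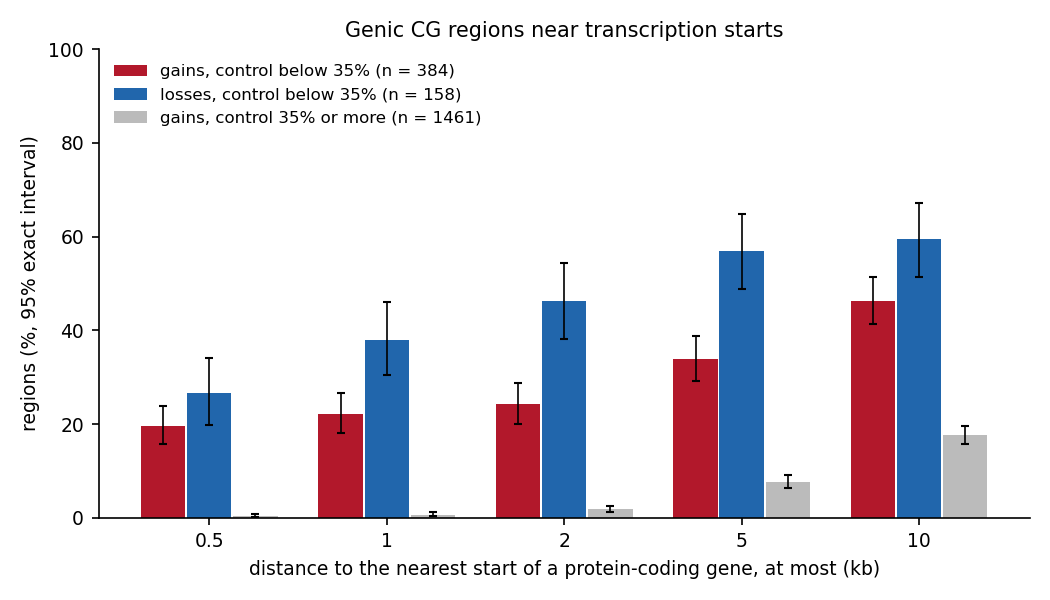
Percent of genic CG regions that lie within 0.5, 1, 2, 5 and 10 kb of the nearest start of a protein-coding gene, with 95% exact binomial intervals. Gains from below 35% in control (n = 384) rise from 19.5% at 0.5 kb to 46.4% at 10 kb, losses from below 35% (n = 158) from 26.6% to 59.5%, and gains from 35% or more (n = 1461) from 0.411% to 17.6%.

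The 15 regions with the largest area statistic were CpG-dense, and for 12 of them the start of the gene was listed. Of those 12, 1 (Ebf4) lay within 1 kb of it. Among the 15, control levels lay between 7.71% (Ebf4) and 31.3% (Zfp316), and densities between 9.64 CpGs per 100 bp (Sobp) and 18.8 (Kpna1). The region of Gprin1, which acts in neurite outgrowth, holds 231 cytosines, lies 11.9 kb downstream of the listed start and ends 0.898 kb before the end of the gene. Otud7a, a deubiquitinase, had 29.1% in cKO and 15.9% in control over 131 cytosines, 313 kb from its listed start (chromosome 7, 63757708 to 63758179). Ebf4, a transcription factor, had 36.01% in cKO and 7.71% in control over 101 cytosines (chromosome 2, 130295168 to 130295548). Dlgap3, a scaffold of the postsynaptic density, had 24.4% in cKO and 9.04% in control over 112 cytosines, 63.5 kb from its listed start. Kpna1, an importin that carries proteins into the nucleus, had 39.1% in cKO and 9.90% in control over 74 cytosines (chromosome 16, 35983694 to 35983890). Unc45b, a chaperone of myosin, had 33.2% in cKO and 8.10% in control, and its region also lies in the noncoding gene Unc45bos, 676 bp from that gene's start. Of these, Ebf4, Kpna1 and Unc45b differed by 28.3, 29.2 and 25.1 points, about as much as the sparser regions, while Gprin1, Cacna1a and Otud7a differed by 13.6, 14.1 and 13.2.

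Over at least 10 CpGs, the 8 largest differences were in regions of 3.65 to 14.9 CpGs per 100 bp. Atxn1, whose product is the ataxin of a polyglutamine disease, had 66.5% in cKO and 28.2% in control over 20 cytosines (chromosome 13, 45918067 to 45918287). Nuak1, a kinase of the AMPK family that acts in axon branching, had 68.6% in cKO and 30.4% in control, 46.7 kb from its start. Gse1 had 64.2% in cKO and 27.4% in control and Nrros, a partner of latent TGF-beta, 64.6% in cKO and 28.2% in control over 727 bp. Cyp4f17, a cytochrome P450, had 50.4% in cKO and 15.6% in control. Nfia, a transcription factor of the nuclear factor I family, had the lowest control level of the 8, with 44.4% in cKO and 8.57% in control over 43 cytosines, 196 kb from its listed start and at 14.9 CpGs per 100 bp. Dok5, an adaptor of receptor kinases, had the highest cKO level at that minimum (75.05%, against 32.2% in control). Without the minimum the largest difference was in Syn3, a synapsin, with 80.5% in cKO and 33.7% in control over 6 cytosines, named after its value was seen.

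Over at least 10 CpGs, gains at the 6 lowest control levels were small and lay mostly at starts. Below that minimum this need not hold. Arid1a, named after its values were seen, had 23.4% in cKO and 5.87% in control over 15 cytosines, 46.8 kb from its listed start. Lgalsl, a galectin-like protein, had 11.7% in cKO and 5.85% in control over 23 cytosines, 0.077 kb from the listed start (chromosome 11, 20831004 to 20831058). Efna4, an ephrin ligand, had 17.7% in cKO and 5.92% in control over 59 cytosines. Smagp had 16.5% in cKO and 6.25% in control, and Zfp91, a zinc finger protein, 14.2% in cKO and 6.55% in control. Efna4, Smagp, Mllt3 and Zfp91 were also within 1 kb of their listed starts. Cpt1c, the neuronal member of the carnitine palmitoyltransferases, was the exception among the 6. It had 17.9% in cKO and 6.39% in control at 4.26 kb from the start. At the upper bound of the rule, Scn3a, Cables1 and Psd2 had cKO levels of 63.6%, 63.6% and 58.01% and control levels of 34.98%, 34.97% and 34.90%. Setbp1, Ece1 and Bmpr2 just above it had cKO levels of 66.003%, 63.3% and 60.4% and control levels of 35.05%, 35.07% and 35.08%, so the bound cuts through a continuous range.

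The 504 regions lay in 460 protein-coding genes, which is 2.24% of the 20560 on the autosomes. A CG region higher in cKO at any control level lay in 7.56%. Since the rule chose these genes, that share is a background for the lists and no result. A single region over the protocadherin gamma cluster accounts for 24 of them, 409 genes held 1 region, 38 held 2 and 13 held at least 3. Genes with a region were long, with a median of 75.8 kb against 17.6 kb over all protein-coding genes. Genes with a gain from 35% or more had a median of 82.5 kb. Per 100 protein-coding genes, the chromosomes ranged from 1.65 regions on chromosome 14 to 4.31 on chromosome 18.

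Genes that held several regions differed in kind. In Sptbn4 (chromosome 7, 27356383 to 27447704), 7 regions lay within 41.1 kb, at 25.3% to 56.2% in cKO and 9.56% to 33.5% in control. No CG region was lower in cKO in this gene and no further gain started from 35% or more. By counted cytosines, the densest of the 7 regions held 83 at 27408628 to 27408912 (25.3% in cKO, 9.56% in control). The region shown above, at 27396516 to 27396701, counts 51 cytosines where its sequence holds 30 CpGs. Its density by sequence is thus higher than its counted density, and the sequence of the others was not read in full. Zeb2, a transcription factor that represses through E-boxes, held 7 regions of 5 to 12 cytosines each over 52.9 kb, between 29.3 and 82.1 kb from its listed start. Their levels were 41.2% to 71.6% in cKO and 16.2% to 32.5% in control, and 6 further gains in Zeb2 began at 35% or more. Zeb2 thus carried CpG-poor regions, at most 5.19 CpGs per 100 bp, and Sptbn4 denser ones, at least 6.13.

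Nfix, another nuclear factor I gene, held 5 regions with 50.5% to 58.8% in cKO and 25.5% to 33.3% in control, and 4 further gains from 35% or more. Celsr3, a cadherin receptor of axon guidance, held 4 regions within 15.5 kb, with 24.5% to 43.9% in cKO and 8.12% to 19.6% in control. Tcf4, a basic helix-loop-helix factor, held 4 with 41.5% to 59.9% in cKO and 13.7% to 31.6% in control, and it also held 5 CHH regions higher in cKO and 2 CG regions lower in cKO. Rtn4rl2, a receptor of the Nogo family, held 3 with 18.1% to 28.3% in cKO and 6.90% to 12.8% in control, 1 of them at its start. Shank1, a postsynaptic scaffold, held 3 within 4.97 kb, with 31.2% to 46.0% in cKO and 12.8% to 25.7% in control. Rimbp2, which binds RIM proteins at the presynaptic active zone, held 3 with 52.9% to 70.0% in cKO and 22.4% to 31.1% in control. The others with 3 were Abhd2, Acot7, Gnas, Mtcl1 and Nrxn2. Mtcl1, which crosslinks microtubules, had 56.1% to 60.7% in cKO and 26.9% to 33.4% in control, and Nrxn2, a presynaptic adhesion molecule, 33.0% to 45.5% in cKO and 17.1% to 26.1% in control.

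**Figure D4:**
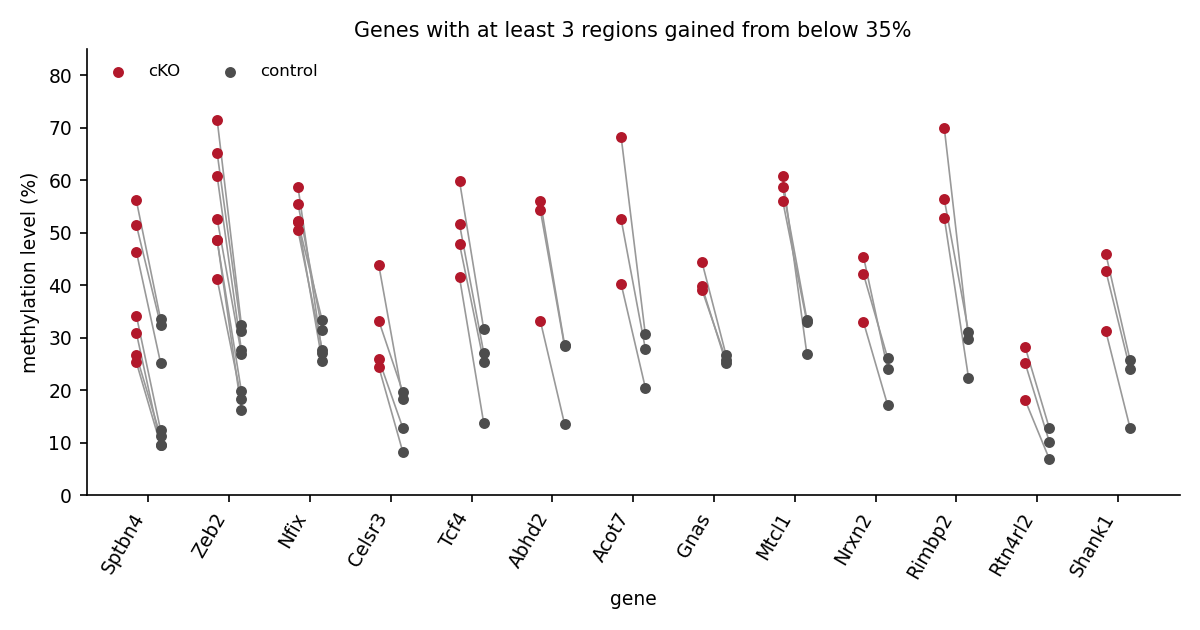
Mean methylation level in cKO (red, left) and control (grey, right) for each region of the 13 genes with at least 3 regions, with a line joining the 2 levels of a region. Control levels in Celsr3 and Rtn4rl2 stay below 20%, while the 5 regions of Nfix all lie between 50.5% and 58.8% in cKO and between 25.5% and 33.3% in control.

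Synaptic and channel genes held such gains more often than the background of 2.24%. No test was made of this, since the lists were written with earlier results known. Nor was any list matched on gene length, and genes with a region had a median of 75.8 kb against 17.6 kb over all protein-coding genes. The same lists also held CG regions lower in cKO in more genes than the 19.3% of all autosomal protein-coding genes: 11 of 44 release and scaffold genes, 18 of 45 channel genes, 15 of 42 adhesion genes and 12 of 36 receptor genes. Of 44 genes of synaptic release and scaffolds 12 (27.3%) held a region, with 15 regions in all, 7 of them below 15% in control. Over the 15 the levels were 20.5% to 80.5% in cKO and 7.86% to 33.7% in control. Shank3, a scaffold of glutamatergic synapses, had 29.1% in cKO and 11.1% in control over 82 cytosines (chromosome 15, 89523768 to 89524002). Rims1, which organises the active zone, had 20.5% in cKO and 7.86% in control over 75 cytosines, and Unc13a, which primes vesicles, held 2 regions with 38.7% and 49.2% in cKO and 19.7% and 28.8% in control. Of 45 voltage-gated channel genes 10 (22.2%) held 12 regions, with medians of 58.7% in cKO and 30.01% in control. Besides Cacna1a they included Scn8a, a sodium channel of the axon initial segment (17.3% in cKO, 7.31% in control), and Cacna1b, the N-type calcium channel (46.2% in cKO, 28.3% in control). Of the scaffold and release regions with a listed start, 1 of 9 lay within 1 kb of a start, and of the channel regions 0 of 8.

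Of 42 synaptic adhesion genes 8 (19.05%) held 11 regions, with medians of 46.5% in cKO and 24.0% in control. Lrfn1, a synaptic adhesion-like molecule, had 47.8% in cKO and 21.8% in control over 55 cytosines, and Clstn1, a calsyntenin, 53.8% in cKO and 30.9% in control. Of 36 receptor genes 6 (16.7%) held 1 region each. Grin1, the obligatory subunit of NMDA receptors, had 25.9% in cKO and 10.2% in control over 36 cytosines (chromosome 2, 25305262 to 25305422), and Gabbr2, a subunit of the GABA-B receptor, 43.5% in cKO and 25.7% in control. Gria1, a subunit of AMPA receptors, had 51.5% in cKO and 25.9% in control. The receptor regions spread from 10.2% to 34.8% in control.

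Activity-regulated genes, which neurons switch on within minutes to hours of firing, held a gain from below 35% in 5 of 30 (16.7%). The share of all autosomal protein-coding genes was 2.24%. Of the 30, 0 held a CG region lower in cKO, against 19.3% of all autosomal protein-coding genes. Gene length was not matched here, so both contrasts are a description only. All 5 regions were between 31.5% and 41.1% in cKO and between 15.3% and 24.4% in control. Egr3, a zinc finger factor, had 37.0% in cKO and 17.5% in control over 48 cytosines. Nr4a1 and Nr4a3, orphan nuclear receptors, had 38.5% and 41.1% in cKO and 17.7% and 23.3% in control. Fosb, a subunit of AP-1, had 31.5% in cKO and 15.3% in control over 13 cytosines (chromosome 7, 19304987 to 19305087). In Npas4, a transcription factor of inhibitory synapse formation, the region (39.8% in cKO, 24.4% in control) lies 0.17 kb from the end of the gene and 5.40 kb from the nearest listed start. The regions of Fosb and Nr4a3 lie 5.01 and 6.42 kb downstream of a listed start, and that of Nr4a1 ends 5394 bp upstream of the nearest one. Of the 4 with a listed start, 0 lay within 1 kb of it. For Egr3 no start was listed.

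Imprinted genes, expressed from 1 parental allele, held a region in 4 of 35 (11.4%), against 2.24% of all genes. Of the 35, 18 (51.4%) held a CG region lower in cKO, against 19.3% of all genes. Neither contrast was tested or matched on gene length. In Igf2r, the receptor that clears IGF2, the region (chromosome 17, 12741741 to 12742009, 40 cytosines) had 65.5% in cKO and 29.9% in control. Its middle lies 0.564 kb downstream of the start of Airn, the noncoding RNA that silences paternal Igf2r. In Kcnq1, a potassium channel gene, the region (chromosome 7, 143296409 to 143296507) lies 0.089 kb downstream of the start of the noncoding Kcnq1ot1 and had 46.6% in cKO and 31.4% in control. In Plagl1, a zinc finger factor, it lies 0.402 kb downstream of the start of Hymai and had 53.2% in cKO and 34.7% in control. Gnas, which encodes the stimulatory G protein alpha subunit, held 3 regions with 39.2% to 44.5% in cKO and 25.1% to 26.6% in control, 2 of them 0.763 and 0.869 kb downstream of listed Gnas starts. The third lies 13.1 kb from the nearest. Gnas also held 2 CG regions and 2 CHH regions lower in cKO. Herc3, outside the list and named after its values were seen, held 2, of which 1 lies inside the imprinted Nap1l5, 0.432 kb downstream of its start, with 49.6% in cKO and 29.8% in control. At these 5 loci, 6 of 8 regions lay within 1 kb downstream of a start. That count takes in starts of noncoding genes and the Herc3 locus, which was added after its values were seen. Over all regions, counting starts of protein-coding genes only, 54 of 384 lay within 1 kb with their middle downstream. The 2 counts are therefore not alike, and no test was made.

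**Figure D5:**
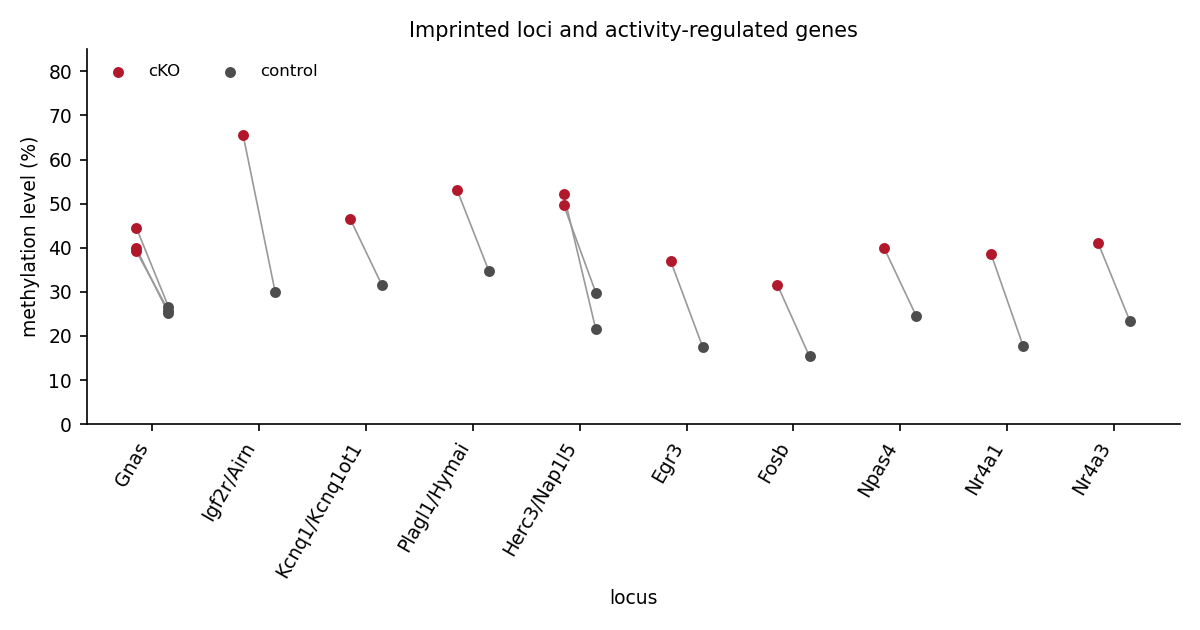
Mean methylation level in cKO (red, left) and control (grey, right) for each gain from below 35% at 5 imprinted loci and in 5 activity-regulated genes (regions lower in cKO are not drawn), with a line joining the 2 levels of a region. The imprinted regions lie between 39.2% and 65.5% in cKO and between 21.5% and 34.7% in control, and the activity-regulated genes between 31.5% and 41.1% in cKO and between 15.3% and 24.4% in control.

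Other lists held such gains in 0 to 2 genes each. Where a list held any, its share of genes was above the background of 2.24%, from 4.17% (axon guidance) to 10% (upper layer). Those shares rest on 1 or 2 genes each and were not tested. Of 69 developmental transcription factors of other lineages 0 held a region, whereas 20 held a CG region lower in cKO (29.0%), against 19.3% of all genes. Among markers of other cell types in the tissue, 0 of 16 astrocyte, 0 of 16 microglia and 0 of 30 interneuron genes held a region. The lists of oligodendrocyte lineage and of endothelial and mural genes held 1 each, Ugt8a at its start (26.3% in cKO, 10.01% in control) and Pdgfrb (44.1% in cKO, 19.7% in control). CG regions lower in cKO were present in 8 of 16 astrocyte, 8 of 16 microglia and 8 of 17 oligodendrocyte lineage genes, against 19.3% of all genes. They were also in 7 of 16 endothelial and mural and 9 of 30 interneuron genes. Such losses were not particular to these markers: 14 of 23 deep layer, 7 of 20 upper layer and 17 of 33 area patterning genes held one. So did 31 of 48 axon guidance and 10 of 25 Notch pathway genes. Lists of H3K36, DNA methylation and Polycomb enzymes were below 19.3%, at 14.3%, 16.7% and 4.35%. The part of the cell mix in these losses was not tested. At a background of 2.24%, a count of 0 or 1 gains in lists this short says nothing about the list. Upper layer genes held 2 of 20, Cux2 with 22.5% in cKO and 8.65% in control near its start and Pou3f3 with 52.9% in cKO and 17.4% in control, both transcription factors. Deep layer genes held 1 of 23 (Nfia). Area patterning genes held 2 of 33 (Etv5 and Fgfr1), axon guidance genes 2 of 48 (Sema4d and Ephb2) and Notch pathway genes 2 of 25 (Dtx1 and Hey1). Chromatin enzymes held 1 each, with Nsd3, the paralog of Nsd1, at 43.9% in cKO and 26.6% in control over 5 cytosines. Mbd2, a reader of methylated CpGs, had 20.3% in cKO and 9.26% in control, and Kdm6b, a demethylase of lysine 27 on histone H3, 54.4% in cKO and 33.0% in control.

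Gains outside the CG context were not close to most of these regions. Of the 504, 31 (6.15%) had a CHH region higher in cKO within 5 kb and 17 (3.37%) a CHH region lower in cKO. Of the 1863 genic gains from 35% or more, 12.1% and 1.29% did. Of the 207 low-level losses, 1.45% and 29.95% did. Over whole genes, 39.3% of the 460 genes held a CHH region higher in cKO, against 15.5% of all autosomal protein-coding genes, and 18.7% held one lower in cKO, against 15.7%. Another 1095 genes had a CG gain from 35% or more and none of the 504 regions. Of these 1095, 49.9% held a CHH region higher in cKO and 10.4% one lower in cKO. A CG gain from 35% or more was also present in 36.1% of the 460 genes, against 6.13% of all. These shares come from the same libraries as the choice of the regions and from genes longer than the rest, and are a description.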

How the data were processed

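Whole-genome bisulfite libraries (2 cKO, 2 control) were read out as DNA methylation. CASAVA, Bowtie2 and mm10 are named in the submitters' processing notes. Which program called the regions, and at which thresholds, is not given in the sources used here. The authors' deposited table gives a mean methylation level per group as a fraction (printed as percent) and an area statistic, a deposited score. Gene bodies and 300-base promoter sequences (starts for 82.1% of autosomal protein-coding genes off chromosome 18) came from RefSeq on GRCm38.p6. Starts on chromosome 18, exons and the genome sequence were not used here, so island composition and motifs were read in promoter windows only. Density is cytosines of both strands divided by 2 per length. "At least 10 CpGs" means 20 cytosines. Genes named were the first 15 by area statistic, 8 by difference, 6 by lowest control, 4 by highest cKO level, those with at least 3 regions, up to 4 per list and those beside the 35% bound. Some genes that this rule names are not reported here. The members and the 20 lists were chosen with earlier results of these data known. No test was run. Overlap and distance steps were tested on simulated data. Python 3.11.15, pandas 2.3.3 and scipy 1.17.1 were used.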

Additional observations from a re-analysis of the deposited data

How the results depend on the processing

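The numbers of regions and genes stayed within 1.5 times of 504 and 460 under control bounds of 30% and 40%, with the X, with at least 50% of a region in the gene, and with at least 10 cytosines, the last added after the data were seen. Requiring 10 CpGs left 226 regions in 208 genes, with medians of 36.8% in cKO and 15.3% in control, a difference of 18.8 points, 11.4 CpGs per 100 bp and 34.1% within 1 kb of a start. Requiring 20 points left 329 regions, with 53.9% in cKO, 27.9% in control, 26.1 points, a density of 5.70 and 10% near a start. A control bound of 30% gave a density of 8.53 and 30.1% near a start. The class below 15% in control had a density of 13.6 and the class above it 5.98, a split added after the data were seen. With all regions in the denominator, also added later, 16.9% lay near a start. CHH gains lay within 2 kb of 2.38% and within 10 kb of 10.7% of regions. No paired analysis was possible because the table holds no values per library, and for the same reason no library could be left out. Curated transcripts and exonic shares were not run, as transcript models were not used here. The number of cytosines, 18 in the median region, limits each level, and read depth is unknown.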
